A study of Ovis aries with 3 samples.

Results

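Transcripts for splicing proteins and heterogeneous nuclear ribonucleoproteins (hnRNPs) were examined in the RNA of extracellular vesicles of sheep conceptuses. Such vesicles are small membrane-enclosed particles shed by cells. The members were chosen by symbol alone. They are the rows named SRSF, SNRP or LSM followed by the usual letter or number, HNRNP, and SF3A or SF3B, and there were 55 of them among the 25197 rows of the table, under 54 gene names. The families held 8 SRSF, 18 HNRNP, 11 SNRP, 10 LSM and 8 SF3 rows, and only SRSF3 had more than 1 row. The symbols come from the deposited table, in which 7 of the 55 rows are described as uncharacterized proteins (HNRNPA2B1, SF3B4, SNRPD2, SRSF3_2, HNRNPUL2, HNRNPF and HNRNPK). Of 65 protein-coding sheep genes with symbols of these families in the RefSeq table of assembly ARS-UI_Ramb_v3.0, 54 have a row here. SRSF2, SRSF5, SRSF6, SRSF10, HNRNPC, HNRNPUL1, SNRPA1, LSM6, LSM8, LSM11 and SF3B6 had no row under that symbol.

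There was 1 group of 3 libraries and no control group. Each library held RNA from vesicles that intact conceptuses of day 14 of pregnancy, the embryo with its extraembryonic membranes, had shed during 24 h in a medium with vesicle-depleted fetal bovine serum. Vesicles were precipitated from filtered medium, and polyadenylated RNA was read as full-length cDNA in paired-end libraries. Each library is titled with a number of its own, which the labels do not explain, and no other label names an animal. Part of the spread over the libraries may therefore be technical. With 1 group there is no contrast to test, and all results are levels with their spread over the 3 libraries.

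Pre-mRNA splicing is carried out by the spliceosome, a machine of small nuclear RNAs and proteins that removes introns in the nucleus. A ring of Sm proteins, encoded by SNRP genes, is wrapped around the U1, U2, U4 and U5 small nuclear RNAs, and a related ring of LSm proteins binds U6. SR proteins, encoded by SRSF genes, bind exons and help to define splice sites, whereas hnRNPs coat nascent transcripts and often repress nearby sites. Several SR proteins and hnRNPs also shuttle to the cytoplasm with their messenger RNAs. Only RNA was measured here, so the values concern the transcripts that encode these proteins and not the proteins.

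Values are RPKM-type, that is, reads scaled for gene length and library depth, and they carry 1 decimal. Levels of different genes can be set side by side on this scale. A row counted as detected where each of the 3 libraries had a value of at least 1. The summed values were 17480.7, 40060.3 and 9531.8 in libraries 1, 2 and 3, a ratio of 4.2 between the highest and the lowest. In U6 copies, a value of 1 stood for an estimated 2.41, 1.85 and 2.25 reads in libraries 1, 2 and 3, and it stands for more reads in longer genes. Of 170 olfactory receptor rows, which conceptus cells should lack, 5, 3 and 9 reached a value of 1 in libraries 1, 2 and 3, and 2 did so in all 3. Of 11 trophectoderm marker rows KRT8, TP-1 (interferon tau) and S100G were detected. In libraries 1, 2 and 3 SLC2A1 stood at 3, 6.7 and 0, GATA3 at 0.9, 0.9 and 3, and ELF5 at 1, 0.2 and 0.8. CDX2, TFAP2A, TFAP2C, PAG1 and GATA2 stayed at 0.5 or less in every library. Of 7 uterine epithelium marker rows 4 were detected. The median log2(value + 1) of the 7 was 2.72, 3.84 and 1.20 in libraries 1, 2 and 3. This was above the trophectoderm median of 0.93, 0.58 and 0.49. Summed values kept this direction in library 1 alone. They were 60.5, 170 and 10.9 for the uterine rows and 41.5, 186 and 37.9 for the trophectoderm rows.

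Splicing and hnRNP transcripts were present at low to moderate levels, and a part of them was found in every library. Of the 55 member rows 11 were detected (20%), beside 3.89% of all rows and 3.95% of the 15503 named rows that are not small RNAs. The 11 were SRSF3_1, SRSF7, SRSF9, SNRPC, SNRPD3, SNRPB, SNRPE, LSM7, LSM3, HNRNPA2B1 and SF3B4. A further 12 members reached a value of 1 in 2 libraries, 11 in 1 library, and 21 in none. Among named rows 5.86% did so in exactly 2 libraries, 9.42% in exactly 1, and 80.8% in none. With the rows of each gene name summed, 11 of 54 names were detected, against 3.99% of all names. Without library 3, 22 member rows reached 1 in both other libraries, and the share of all rows that did so was also higher, at 7.29%. With each library rescaled to the mean summed value the count was 17, beside 4.25% of all rows. In bulk vesicle RNA, fewer vesicles from a cell type and less RNA per vesicle cannot be told apart.

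**Figure D1:**
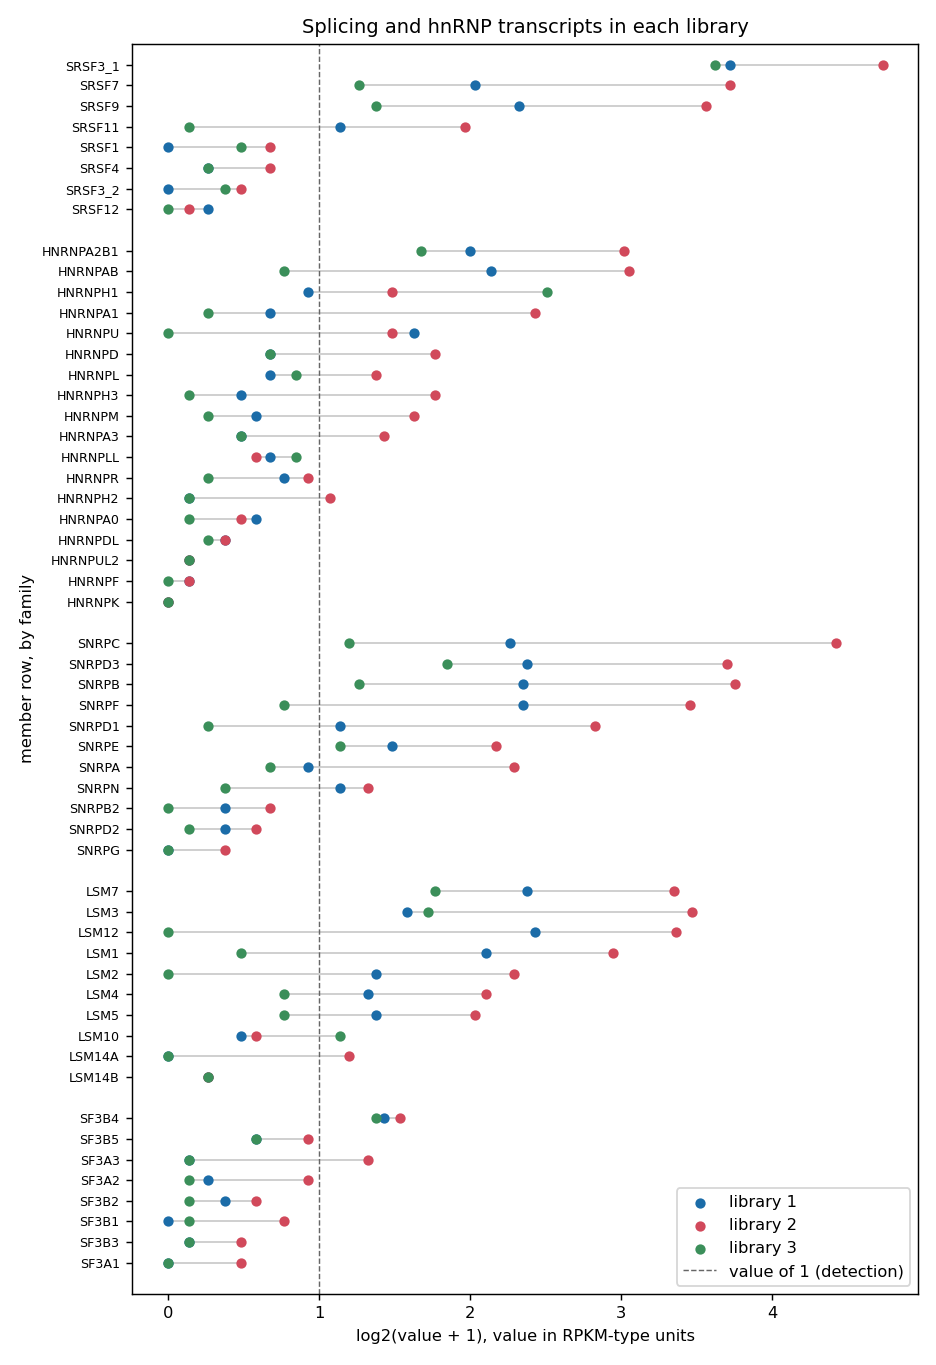
Each line is 1 of the 55 member rows, grouped by family and ordered by mean, with a point per library on a log2(value + 1) scale in RPKM-type units; the dashed line marks a value of 1, and where libraries tie the last drawn point covers the others. SRSF3_1 stands farthest right in every library, most red points (library 2) lie to the right of the others, and HNRNPH1 and LSM10 are highest in library 3.

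By library, 22, 33 and 13 members reached a value of 1 in libraries 1, 2 and 3, which is 40.0%, 60% and 23.6% of them. The shares of all named rows were 9.49%, 16.0% and 7.51%. Over all 55 rows the median value was 0.600, 1.70 and 0.200 in libraries 1, 2 and 3, against 0.100, 0.200 and 0.100 over named rows. Together the members took 0.457%, 0.538% and 0.478% of the summed value of the 3 libraries. That total share was similar in the libraries although their summed values were far apart. The shares of the families were less even. Those of SNRP and LSM rows were lowest in library 3, at 0.0881% and 0.0829%. Those of SRSF, HNRNP and SF3 rows were highest in library 3, at 0.161%, 0.120% and 0.0273%. Above the 99th percentile of olfactory receptor rows in all 3 libraries were SRSF3_1, SNRPD3 and LSM7. That percentile was 2.03, 1.49 and 2.32 in libraries 1, 2 and 3, and 13, 31 and 4 members were above it. The share of all rows above it was not computed, so these counts have no background beside them.

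Of 8 SRSF rows 3 were detected (37.5%, beside 3.89% of all rows), and SRSF3_1 was the highest of them in each library. SRSF3, the smallest of the classical SR proteins, which also takes part in messenger RNA export, stood at 12.2, 25.6 and 11.3 on row SRSF3_1 in libraries 1, 2 and 3 (16.4 ± 8.01, SD, n = 3). This was the highest member value in each library, and the row was the one member at 5 or more in all of them. Its mean ranked 161st in the whole table, with a value in the top percentile of each library. The other copy, SRSF3_2, was listed at 0, 0.4 and 0.3, and the division of reads between copies is uncertain.

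SRSF7, an SR protein with a zinc knuckle that acts as an export adaptor, stood at 3.1, 12.2 and 1.4 (5.57 ± 5.81, SD, n = 3). SRSF9 stood at 4, 10.8 and 1.6 (5.47 ± 4.77, SD, n = 3). Both were highest in library 2 and lowest in library 3, with ratios of 8.71 and 6.75 between these libraries. SRSF11 reached 1.2 and 2.9 in libraries 1 and 2 but 0.1 in library 3. The remaining SRSF rows stayed below 1 in every library. They include SRSF1, the best studied SR protein, at 0, 0.6 and 0.4, SRSF4 at 0.2, 0.6 and 0.2, and SRSF12 at 0.2, 0.1 and 0. So 4 of the 8 SRSF rows stayed below 1 throughout, beside 80.8% of named rows that are not small RNAs.

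Of the core proteins of the small nuclear ribonucleoproteins, 4 of 11 SNRP rows were detected (36.4%, beside 3.89% of all rows), and 7 without library 3 (beside 7.29%). SNRPC, the U1 protein that helps to recognise the 5′ splice site, stood at 3.8, 20.5 and 1.3 (8.53 ± 10.4, SD, n = 3). It had the highest SNRP mean and also a wide spread, with a value in library 2 that was 15.8 times that in library 3. SNRPA, the other U1-specific member, reached 1 in library 2 alone, at 3.9 against 0.9 and 0.6 in libraries 1 and 3. SNRPB2, a U2 protein, was listed at 0.3, 0.6 and 0.

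The Sm ring is built of 7 proteins, and the transcripts of its parts differed widely in level. SNRPD3 stood at 4.2, 12 and 2.6 in libraries 1, 2 and 3 (6.27 ± 5.03, SD, n = 3). SNRPB stood at 4.1, 12.5 and 1.4 (6 ± 5.79, SD, n = 3). Both were detected, as was SNRPE at 1.8, 3.5 and 1.2 (2.17 ± 1.19, SD, n = 3). The detected ring members kept the same order of libraries, 2 above 1 above 3. SNRPF missed detection in library 3 alone, at 4.1, 10 and 0.7, as did SNRPD1, at 1.2, 6.1 and 0.2. SNRPN, the imprinted relative of SNRPB that is known from brain, stood at 1.2, 1.5 and 0.3. SNRPG was listed at 0, 0.3 and 0, the lowest of the family.

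The low row for SNRPD2, at 0.3, 0.5 and 0.1, had a counterpart without a symbol. The row ENSOARG00000010203, which the file describes as the D2 polypeptide, stood at 7.3, 22.1 and 2.3 (10.6 ± 10.3, SD, n = 3). It is no member by symbol, and it was higher than each SNRP row in libraries 1 and 2. In library 3 it was below SNRPD3 at 2.6. Likewise the row SNPRA1, described as the U2 protein A′ and spelled so in the file, stood at 1.9, 6.7 and 1.4. The first was found by its description, and SNPRA1 by its symbol after its values were seen.

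**Figure D2:**
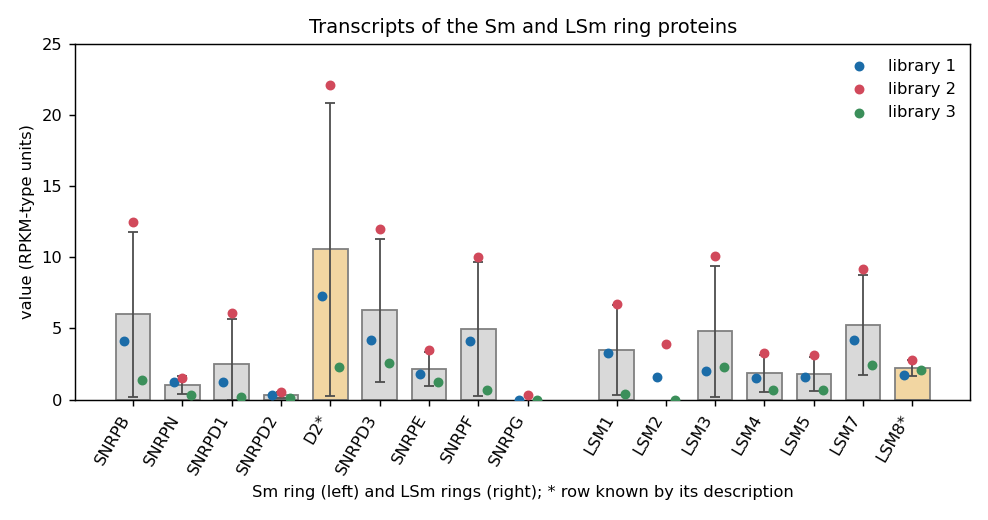
Bars give the mean and error bars the SD of 3 libraries, in RPKM-type units, for transcripts of the Sm ring (left) and the LSm rings (right), with a point per library; rows listed at 0 in a library have points and no bar, and orange bars marked * are rows known from their description (D2 polypeptide, and NAA38, described as LSM8). The described D2 row averages 10.6 beside SNRPD2 near 0, and SNRPG lies near 0.

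LSm proteins form a ring of LSM2 to LSM8 on U6 in the nucleus, and a ring of LSM1 to LSM7 that promotes messenger RNA decay in the cytoplasm. LSM7 stood at 4.2, 9.2 and 2.4 (5.27 ± 3.52, SD, n = 3) and LSM3 at 2, 10.1 and 2.3 (4.80 ± 4.59, SD, n = 3). These were the detected rows among 10 (20%, beside 3.89% of all rows), and 7 reached 1 in libraries 1 and 2 (beside 7.29%). LSM1, the subunit that marks the cytoplasmic ring, stood at 3.3, 6.7 and 0.4. LSM4 at 1.5, 3.3 and 0.7 and LSM5 at 1.6, 3.1 and 0.7 were nearly alike in each library. LSM2 was listed at 1.6, 3.9 and 0. Every one of the 6 rows of LSM1 to LSM7 thus passed 1 in libraries 1 and 2. LSM8, the subunit of the nuclear ring, has its description on the row NAA38, which stood at 1.7, 2.8 and 2.1 (2.20 ± 0.557, SD, n = 3).

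Members of the LSM family outside these rings were mostly lower. LSM12 was the exception in libraries 1 and 2, at 4.4 and 9.3, and it was listed at 0 in library 3. LSM10, which belongs to the U7 particle that processes histone transcripts, stood at 0.4, 0.5 and 1.2 and was highest in library 3. LSM14A, a protein of cytoplasmic RNA granules, was listed at 0, 1.3 and 0, and its relative LSM14B at 0.2 in each library.

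The hnRNP family was the largest of the families and had 1 detected row of 18 (5.56%), near the 3.89% of all rows. It had 2 without library 1 and 3 without library 3, beside 5.06% and 7.29% of all rows. HNRNPA2B1, which in human cells is known to help sort microRNAs into exosomes, stood at 3, 7.1 and 2.2 (4.10 ± 2.63, SD, n = 3). HNRNPAB, a relative found with transported messenger RNAs, stood at 3.4, 7.3 and 0.7 and missed detection in library 3. HNRNPU, a nuclear scaffold protein, stood at 2.1 and 1.8 in libraries 1 and 2 and was listed at 0 in library 3. In the family as a whole, 11 of 18 rows reached 1 in library 2 (61.1%) but 3 in library 1 (16.7%) and 2 in library 3 (11.1%). The shares of named rows were 16.0%, 9.49% and 7.51% in libraries 2, 1 and 3.

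HNRNPH1, a protein that binds runs of G in pre-mRNA, had a different order of libraries. It stood at 0.9, 1.8 and 4.7 in libraries 1, 2 and 3 (2.47 ± 1.99, SD, n = 3), so library 3 was highest, at 5.22 times library 1. Its close relatives did not share this order, since HNRNPH2 stood at 0.1, 1.1 and 0.1 and HNRNPH3 at 0.4, 2.4 and 0.1. HNRNPH1, at 4.7, and SRSF3_1, at 11.3, were the highest members of library 3.

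The other 14 hnRNP rows reached a value of 1 in library 2 alone or in no library. HNRNPA1, the prototype that represses splice sites, stood at 0.6, 4.4 and 0.2. HNRNPD, which binds AU-rich elements, stood at 0.6, 2.4 and 0.6, HNRNPL at 0.6, 1.6 and 0.8, HNRNPM at 0.5, 2.1 and 0.2, and HNRNPA3 at 0.4, 1.7 and 0.4. Each of these passed 1 in library 2 alone. The rows HNRNPLL, HNRNPR, HNRNPA0, HNRNPDL, HNRNPUL2 and HNRNPF stayed between 0 and 0.9. HNRNPK, a poly(C)-binding protein, was the one member listed at 0 in all 3 libraries. HNRNPK, HNRNPF and HNRNPUL2 are among the rows described as uncharacterized proteins, and whether other rows hold their reads was not tested. The detected rows HNRNPA2B1 and SF3B4 are described so too, and their identity rests on the symbol. A row without a symbol that is described as hnRNP A1-like 2, ENSOARG00000014881, was also listed at 0 throughout.

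The SF3a and SF3b complexes hold the U2 particle at the branch point, and their rows had the lowest medians of the 5 families. SF3B4 was the detected one of 8 (12.5%, beside 3.89% of all rows) and stood at 1.7, 1.9 and 1.6 (1.73 ± 0.153, SD, n = 3). It had the lowest ratio between libraries of the 11 detected members, 1.19, on the deposited scale. With libraries rescaled to the mean summed value it stood at 2.17, 1.06 and 3.75; the values were even on the deposited scale only. SF3A3 reached 1.5 in library 2 and 0.1 in the others. SF3B1, the large subunit at the branch point that is known for mutations in blood cancers, was listed at 0, 0.7 and 0.1. The others, SF3B5, SF3A2, SF3B2, SF3B3 and SF3A1, stayed between 0 and 0.9. The row ENSOARG00000017819, described as SF3b subunit 6, the small protein next to the branch-point adenosine, stood at 6.5, 23.8 and 2.9 (11.1 ± 11.2, SD, n = 3). It lies outside the symbols, was found by its description, and was higher than each SF3 row in every library.

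**Figure D3:**
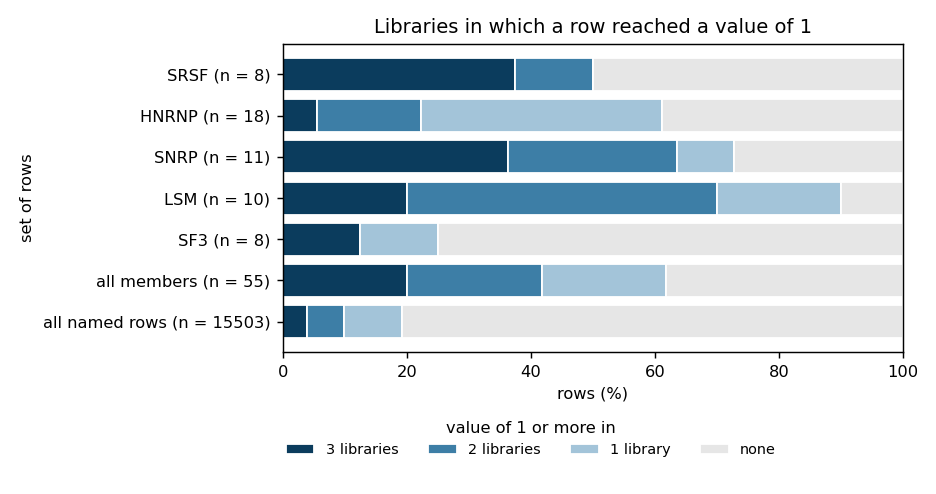
Stacked bars give the percentage of rows that reached a value of 1 in 3, 2, 1 or no library, for each family, for all 55 members and for the 15503 named rows without small RNAs. LSM and SNRP have the widest dark segments for 2 or 3 libraries combined, HNRNP rows fall mostly in 1 library or none, and the named rows as a whole fall in none at 80.8%.

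The SNRP and LSM rows, most of which encode ring proteins, were set side by side with the SRSF and HNRNP rows within each library. The median log2(value + 1) over the 21 SNRP and LSM rows was 1.38, 2.29 and 0.68 in libraries 1, 2 and 3. Over the 26 SRSF and HNRNP rows it was 0.63, 1.41 and 0.26. The median of the SNRP and LSM rows, which include U1 and U2 proteins and LSM proteins outside the rings, was higher in 3 of 3 libraries, by 0.75, 0.89 and 0.42 (0.68 ± 0.24, SD, n = 3). Summed values did not keep this direction in library 3. The SNRP and LSM rows summed to 41.1, 119 and 16.3 in libraries 1, 2 and 3, and the SRSF and HNRNP rows to 35.8, 89.2 and 26.7. A difference of medians on the log2(value + 1) scale understates that of low genes, and with a pseudocount of 0.1 it was 1.27. Over all rows of the table the median was 0.14 in each library. The medians of the SF3 rows, 0.20, 0.85 and 0.14, were below those of both sets.

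Library 2 was highest for most members. Of the 34 members that reached 1 in some library, 31 were highest in library 2 (91.2%), 1 in library 1 and 2 in library 3. Among the 2982 such named rows, library 2 was highest in 73.2%. Library 3 was lowest for 25 of the 34 members (73.5%) and for 61.6% of those named rows. HNRNPU was the member highest in library 1, and HNRNPH1 and LSM10 those highest in library 3. On values rescaled to the mean summed value, library 2 was highest for 18 of the 34 members (52.9%), library 3 for 9 and library 1 for 7. For the named rows the rescaled shares were 37.1% in library 2 and 36.9% in library 3.

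Rescaling brought some members to nearly equal values. LSM7 stood at 5.37, 5.13 and 5.63 in libraries 1, 2 and 3 after rescaling, LSM4 at 1.92, 1.84 and 1.64, and SNRPD3 at 5.37, 6.70 and 6.10. HNRNPH1 diverged further, at 1.15, 1.00 and 11. LSM12, HNRNPU and LSM2 are listed at 0 in library 3 and stay there under any scaling. The order of members was most alike in libraries 1 and 2. Spearman's rho across the 55 members was 0.87 for libraries 1 and 2, 0.64 for 1 and 3, and 0.61 for 2 and 3, against 0.65, 0.50 and 0.44 across the named rows. These are descriptions across genes, which share each library's depth and rounding. The 55 members and the named rows also differ in level. Of the named rows 80.8% stayed below 1 in every library, beside 21 of the 55 members. The effect of this on rho was not tested.

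**Figure D4:**
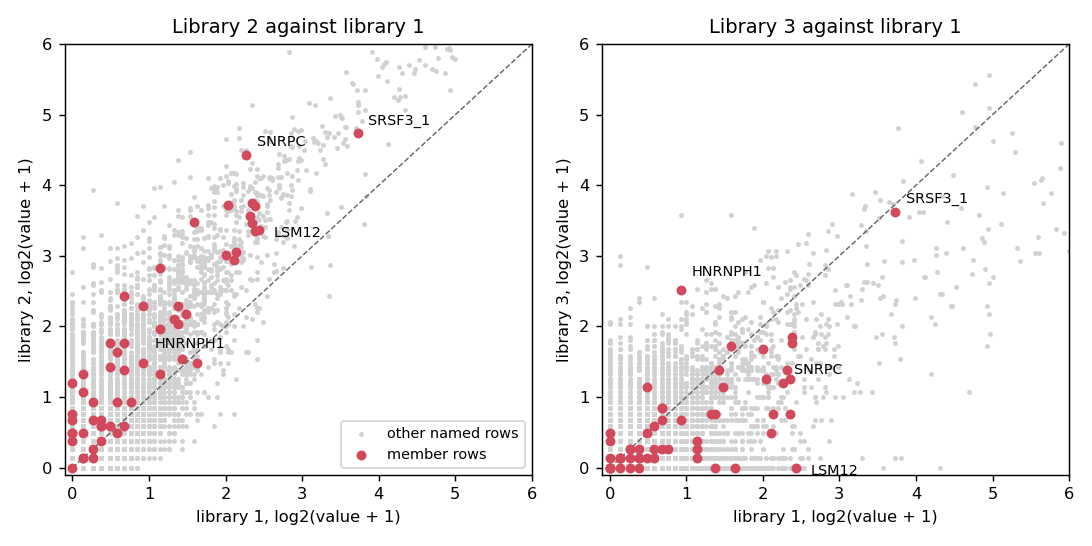
Each point is a row, in red for the 55 members and in grey for the other named rows, with log2(value + 1) in library 1 on the x axis and in library 2 (left) or library 3 (right) on the y axis; the dashed line marks equal values and rows beyond 6 are not drawn. Members lie mostly above the line for library 2 and below it for library 3, where HNRNPH1 lies above it and LSM12 at 0.

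Other genes of the splicing pathway were taken from fixed lists. Of 55 rows for other spliceosome proteins 6 were detected (10.9%, beside 3.89% of all rows). Without library 3 there were 10, beside 7.29% of all rows. The 6 detected in all 3 libraries were TXNL4A, a small U5 protein, at 1.6, 11.6 and 4.8, SNRNP25 of the minor spliceosome at 3, 4.1 and 1, PPIH at 1.5, 4 and 1.8, PUF60 at 1, 2.9 and 1.7, RBM17 at 1.7, 1.9 and 1.9, and the helicase DHX15 at 1.5, 1.1 and 1.7. SNRNP27 at 3, 11.5 and 0 and U2AF1, which reads the AG at the 3′ splice site, at 4.3, 6.9 and 0 were listed at 0 in library 3. PHF5A, the SF3b subunit named outside the SF3 pattern, stood at 1.5, 3.8 and 0.4. SNRNP70, the remaining U1 protein, stood at 0.4, 0.9 and 0.1.

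None of 13 rows for Sm ring assembly was detected, beside 3.89% of all rows, and so short a list could hold none at that share. Of the 13, 2 reached 1 in libraries 1 and 2 (beside 7.29% of all rows), STRAP at 1.7, 3.6 and 0.1 and GEMIN7 at 1.3, 1.8 and 0.3. PRMT5, the enzyme that methylates Sm proteins, stood at 0.6, 0.8 and 1.1. Of 41 rows for SR protein kinases and other splicing regulators 3 were detected (7.32%, beside 3.89% of all rows). Without library 3 there were 7, beside 7.29% of all rows. RBMX, an hnRNP (hnRNP G) under another name, stood at 1.4, 4.8 and 3.6, the SR-related SRRM1 at 1.5, 3 and 1.3, and the SR-like TRA2B at 1.4, 2.8 and 1.6.

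Of 29 rows for the exon junction complex, export and poly(A) binding 4 were detected (13.8%, beside 3.89% of all rows). PABPC1, the cytoplasmic poly(A)-binding protein, stood at 10, 22.1 and 14 (15.4 ± 6.16, SD, n = 3), near SRSF3_1. The exon junction core pair RBM8A and MAGOH, which bind each other, stood at 3.5, 9.2 and 3.3 and at 2.8, 6.1 and 1.4. The export factor THOC7 stood at 1.7, 8.6 and 2.4. For the decay partners of the cytoplasmic LSm ring, 1 of 19 rows was detected (5.26%, near the 3.89% of all rows). There were 2 without library 2 and 3 without library 3, beside 4.45% and 7.29% of all rows. TOB1, which recruits deadenylases, stood at 4.3, 3.6 and 3, the deadenylase CNOT7 at 2.8, 4.5 and 0, and the helicase DDX6 at 1.6, 0.9 and 1.2.

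A list of 23 rows covered RNA-binding proteins that have been reported with vesicle RNA and hnRNP relatives under other names. Of these, 4 were detected (17.4%, beside 3.89% of all rows), and 7 without library 3 (beside 7.29%). YBX1, known in human cells to sort RNA into exosomes, stood at 11, 22.6 and 6.6 (13.4 ± 8.27, SD, n = 3). ILF2 stood at 1.7, 8.9 and 1.9, the cold-inducible RBM3 at 2.4, 6.8 and 1.8, and PCBP2, also called hnRNP E2, at 2.6, 4.6 and 2. SYNCRIP, or hnRNP Q, stood at 1.2, 2.8 and 0.4, and ELAVL1 at 1.7, 1.5 and 0. Of the 23 rows 12 stayed below 1 in every library, beside 80.8% of named rows that are not small RNAs.

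**Figure D5:**
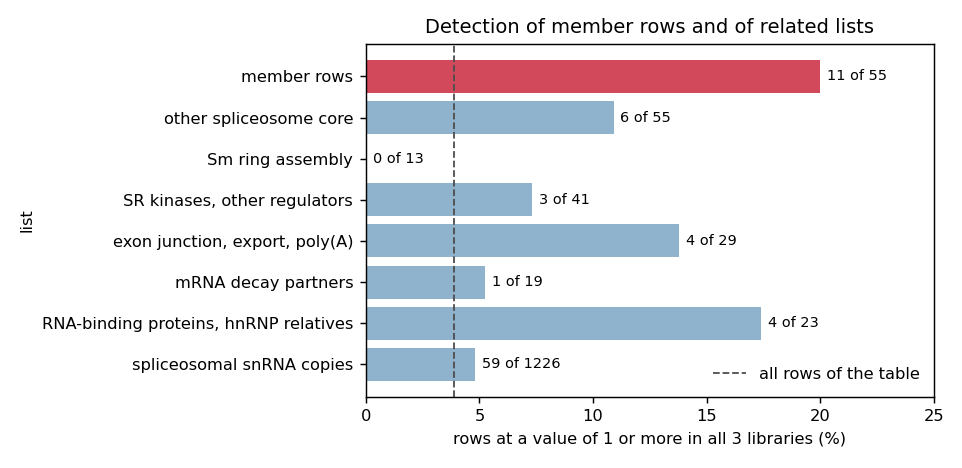
Bars give the percentage of rows with at least 1 in every library for the members (red) and for 7 related lists (blue), with the counts printed; the dashed line is the 3.89% of all rows. The members reach 20%, Sm ring assembly 0 of 13, and spliceosomal RNA copies 4.81%.

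The small nuclear RNAs that these proteins bind gave a detection rate near the background. Of 1226 rows for spliceosomal RNA copies 59 were detected (4.81%, beside 3.89% of all rows), and 47 of them were among the 1012 copies of U6. The detected copies of U1, U2, U4 and U6atac numbered 3, 2, 2 and 4. Of 2 U11 rows 1 was detected, and the highest U11 value was 1.4, 6.5 and 5.5 in libraries 1, 2 and 3. None of 18 U5 rows was detected, and the highest U5 value was 0.4, 1.5 and 0.4 in libraries 1, 2 and 3. The U6 copies summed to 440, 321 and 500, so unlike most member transcripts they were highest in library 3. The RNAs are short and mostly lack poly(A) tails, and many copies are near-identical, so the division of reads among them is uncertain.

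Marker lists of the cell types that the medium could hold differed in their order of libraries. The 7 rows of uterine epithelium markers summed to 60.5, 170 and 10.9 in libraries 1, 2 and 3, and 4 were detected (LGALS15, CST6, FXYD4 and IGFBP1), with SERPINA14 at 0, 0.4 and 0. The 11 trophectoderm marker rows summed to 41.5, 186 and 37.9, most of it KRT8 at 26.3, 138.9 and 27.3, and their median log2(value + 1) was highest in library 1, at 0.93, 0.58 and 0.49. The 5 epiblast rows summed to 2.90, 4.40 and 4.70 with 1 detected, the 8 extraembryonic endoderm rows to 9.70, 31.6 and 12.6 with 2 detected, and the 6 mesoderm rows to 4.30, 5.80 and 0.8 with none detected. Leukocyte rows summed to 2.70, 6.20 and 4.90 with none of 7 detected. Among them AIF1 stood at 0.3, 2.8 and 4.1, CD74 at 1.5, 1.3 and 0.1, and PTPRC, the general leukocyte marker, at 0.1 in each library. Erythroid rows summed to 0.9, 1.4 and 0.8 with none of 4 detected. The part of these cell types in the member values was not tested.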

How the data were processed

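RNA from day 14 conceptus vesicles was measured in 3 libraries of 1 group. The deposited table gives 1 value per library and the authors' mean. Its unit is not named. The deposited values were taken as RPKM made by the authors, because short genes step by more than long ones and the columns do not sum to a fixed total; FPKM would look alike. The submitters' processing notes name the build Oar_v3.1. The sources used here name neither aligner nor counter. Depth can only be estimated, from steps of up to 4 reads in U6 copies, where 95.4%, 94.8% and 94.2% of the values used lay within 0.1 of a whole multiple; no count model was fitted. Interval estimates were not made.

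Library numbers follow accession order, and columns were matched to libraries by title. Rows were selected by the symbol pattern with a trailing copy number removed. Detection required at least 1 in each of the 3 libraries, and levels used log2(value + 1) with no filter on low values. No test was run, since the design has no contrast. Named were all detected members, the leading and lowest rows of each family, those at 1 or more in 2 libraries, and the detected and 3 leading rows of each list; the other members were named to account for all. PHF5A and SNRNP70 were named to complete their particles, and rows found by description were named after their values were seen. The members and lists were chosen with earlier results of these data known. Alternatives were detection values of 0.5, 2 and 5, rescaling of each library to the mean summed value, a pseudocount of 0.1, a filter, descriptions in place of symbols, and leaving out each library. Functions were tested on simulated data. Python 3.11.15, NumPy 2.4.6, pandas 2.3.3, SciPy 1.17.1 and Matplotlib 3.10.9 were used. No sequences were used here.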

Additional observations from a re-analysis of the deposited data

How the results depend on the processing

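No paired analysis was possible because there was 1 group. At a detection value of 0.5, 21 member rows and 21 gene names were detected (7.56% of all rows), with 6 HNRNP, 4 LSM and 2 SF3 rows, and in the lists 1 Sm assembly, 5 regulator, 8 exon junction and export, 2 decay and 103 small nuclear RNA rows. At a value of 2 there were 5 member rows and 5 names (1.89% of all rows), with 1 SRSF, 1 SNRP and 0 SF3 rows, 0 other spliceosome, 0 regulator, 2 exon junction and export, 2 RNA-binding protein and 30 small nuclear RNA rows. At a value of 5 there was 1 member row and 1 name (0.687% of all rows), an SRSF row, with 0 HNRNP, 0 SNRP, 0 LSM and 0 SF3 rows, 0 other spliceosome, 0 regulator, 1 exon junction and export, 0 decay, 1 RNA-binding protein and 4 small nuclear RNA rows. A stricter value detects fewer rows by construction.

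Rescaling gave 17 member rows and 17 names (4.25% of all rows), with 3 HNRNP and 4 LSM rows, and all 11 members detected on the deposited scale were among the 17. With 1 library left out, the counts ranged from 11 to 22 for member rows and for names, from 1 to 3 for HNRNP, 4 to 7 for SNRP and 2 to 7 for LSM rows. In the lists they ranged from 6 to 10 for other spliceosome proteins, 0 to 2 for Sm assembly, 3 to 7 for regulators, 1 to 3 for decay partners and 4 to 7 for RNA-binding proteins. The share of all rows was 5.06%, 4.45% and 7.29% without libraries 1, 2 and 3. The highest counts came without library 3, which has the lowest summed value; the cause was not tested.

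With rows recognised by description, 13 members were detected, and 15 when SNPRA1 and NAA38 were added, a setting chosen after seeing the data. The members' share of the summed value was then 0.574% with descriptions, against 0.491% by symbol. The median log2(value + 1) of the members, 0.79 ± 0.59 (SD, n = 3), was 1.46 over rows that reached 1 in a library and -0.47 with a pseudocount of 0.1. The difference between SNRP and LSM rows and SRSF and HNRNP rows, as a mean over libraries, kept its direction under every alternative tried. It ranged from 0.57 to 1.27, the highest with a pseudocount of 0.1. The lowest, over rows that reached 1 in a library, had a wide spread (0.57 ± 0.49, SD, n = 3). Of 54 member means, 6 moved by more than 1 SD on rescaling. Means of rows high in library 2 depended on it: SNRPC, 8.53 over 3 libraries, was 2.55 without library 2, and HNRNPA1, 1.73 over 3 libraries, was 0.4 without it. Rounding to 1 decimal limits rows near 1. Reads per value were few in the short U6 copies and were not estimated in the member rows.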
